A study of Mus musculus with 18 samples.

Results

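The 34 genes described here make the proteins that copy DNA and divide the cell. They are the row symbols of the deposited count table that belong to DNA replication and mitosis by name, a choice made with earlier results of these data known. All 34 were found among the 55536 genes of the table, and all 34 passed the filter on low counts that left 17590 genes for testing. They fall into 6 roles: 9 genes of replication licensing and the replicative helicase (Mcm2 to Mcm7, Cdc6, Cdt1 and Cdc45), 4 of nucleotide supply and the sliding clamp (Rrm1, Rrm2, Tyms and Pcna), 7 cyclins and their kinases (Ccne1, Ccne2, Cdk2, Ccna2, Ccnb1, Ccnb2 and Cdk1), 2 transcription factors (E2f1 and Foxm1), 6 mitotic kinases and checkpoint proteins (Aurka, Aurkb, Plk1, Bub1, Bub1b and Cdc20) and 6 proteins of chromosomes and the spindle (Mki67, Top2a, Cenpf, Birc5, Kif11 and Tpx2).

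The RNA came from whole pancreatic islets of male mice aged 17 weeks on the NOD.CB17-Prkdcscid/NCrCrl background, which lacks mature T and B lymphocytes. Slc30a8 encodes ZNT8, the zinc transporter of insulin granules, and the islets were ZNT8 -/- (KO), ZNT8 +/- (Het) or ZNT8 +/+ (WT). After a night in culture they were kept for 24 h with TNF-a at 100 pg/ml, IL-1b at 150 pg/ml and IFN-g at 10 pg/ml, or in the same RPMI medium without cytokines. The 6 groups had 3 libraries each, and the scid mutation was shared by all of them. The sources used here do not say which part of Slc30a8 the KO allele lacks, nor whether each library came from its own mouse, so the p-values measure the spread between these libraries. An islet library mixes many cell types, and fewer dividing cells cannot be told apart from less of each RNA per dividing cell.

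A cell that prepares to divide passes from G1 into S phase, copies its DNA, and then enters mitosis. In G1 the MCM helicase is loaded onto origins by Cdc6 and Cdt1. E2F factors, freed when cyclin-dependent kinases phosphorylate the retinoblastoma proteins, turn on the genes of S phase, and later FOXM1 and the MuvB complex turn on those of G2 and mitosis. Adult islet endocrine cells divide rarely, and islets also hold endothelial, mesenchymal and immune cells that can divide.

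Library totals were 22990164 to 29946680 counts. Slc30a8 itself was detected in every library, at 44.0 to 55.9 CPM (reads of the gene scaled to a common library size) in untreated KO islets and 98.8 to 125 CPM in untreated WT islets, a log2 fold change of -1.23 ± 0.19 (SE; edgeR quasi-likelihood test, Benjamini-Hochberg adjusted p = 0.00495). Untreated Het islets had 95.7 to 126 CPM, and this RNA did not set them apart from WT islets (-0.06 ± 0.19, edgeR adjusted p = 0.966). KO against Het untreated was -1.17 ± 0.19 and did not pass (edgeR adjusted p = 0.112). Nos2, the inducible nitric oxide synthase that these cytokines turn on in islets, was at 55.2 to 85.3 CPM in the 9 treated libraries and at 2.91 CPM or less in the 9 untreated ones. The 10 beta cell markers summed to 143800 to 233000 CPM. The 9 lymphocyte markers summed to at most 4.59 CPM.

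One library stood apart for the cell cycle genes. Untreated Het replicate 1 had the lowest CPM of its group for 34 of 34 members and the lowest of all 9 untreated libraries for 32. For 29 members it lay within or below the range of the 3 treated Het libraries, while Het untreated replicates 2 and 3 did so for 0 members each. Its Nos2 stood at 0.341 CPM, as low as in the other untreated libraries, and its 14 mesenchymal markers summed to 1219 CPM against 3079 and 3365 CPM in its 2 companions. Its 9 duct markers summed to 1610 CPM against 3751 and 4850 CPM, and its 13 macrophage markers to 151.5 CPM against 308.7 and 337 CPM. Every cytokine estimate for Het islets and for the average of the genotypes uses this library, and without it each of the 34 members had a more negative estimate in both. Counts and medians are therefore also given without it, and single genes where the call or the size of the estimate moved most. Among treated libraries the highest values were also gathered in single libraries: Het replicate 2 was highest of its group for 32 members, WT replicate 1 for 30 and KO replicate 1 for 25.

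With cytokines 30 of the 34 members fell over the average of the genotypes, while the counts within single genotypes were smaller and smallest in WT islets. Summed over the 34 genes, the level was 231.5 ± 22.6 CPM in treated and 346 ± 9.44 CPM in untreated KO islets, 242 ± 41.6 and 390.2 ± 129 CPM in treated and untreated Het islets, and 267 ± 33.4 and 340.4 ± 22.0 CPM in treated and untreated WT islets (mean ± SD, n = 3 each). Averaged over the 3 genotypes, 30 of 34 members fell and 0 rose at an adjusted p under 0.05 in edgeR's quasi-likelihood test, where 26.0% of all tested genes fell and 22.7% rose. The median log2 fold change of the members was -0.95, beside -0.02 over all tested genes. Without untreated Het replicate 1, 32 members fell, against 24.7% of tested genes, with a median of -1.06. In the main fit, with all libraries, the 4 that passed in no cytokine comparison were Mcm7, Cdt1, Tyms and Cdk2. Without untreated Het replicate 1, Mcm7 and Tyms passed over the average (edgeR adjusted p = 0.000754 and 0.00887).

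**Figure D1:**
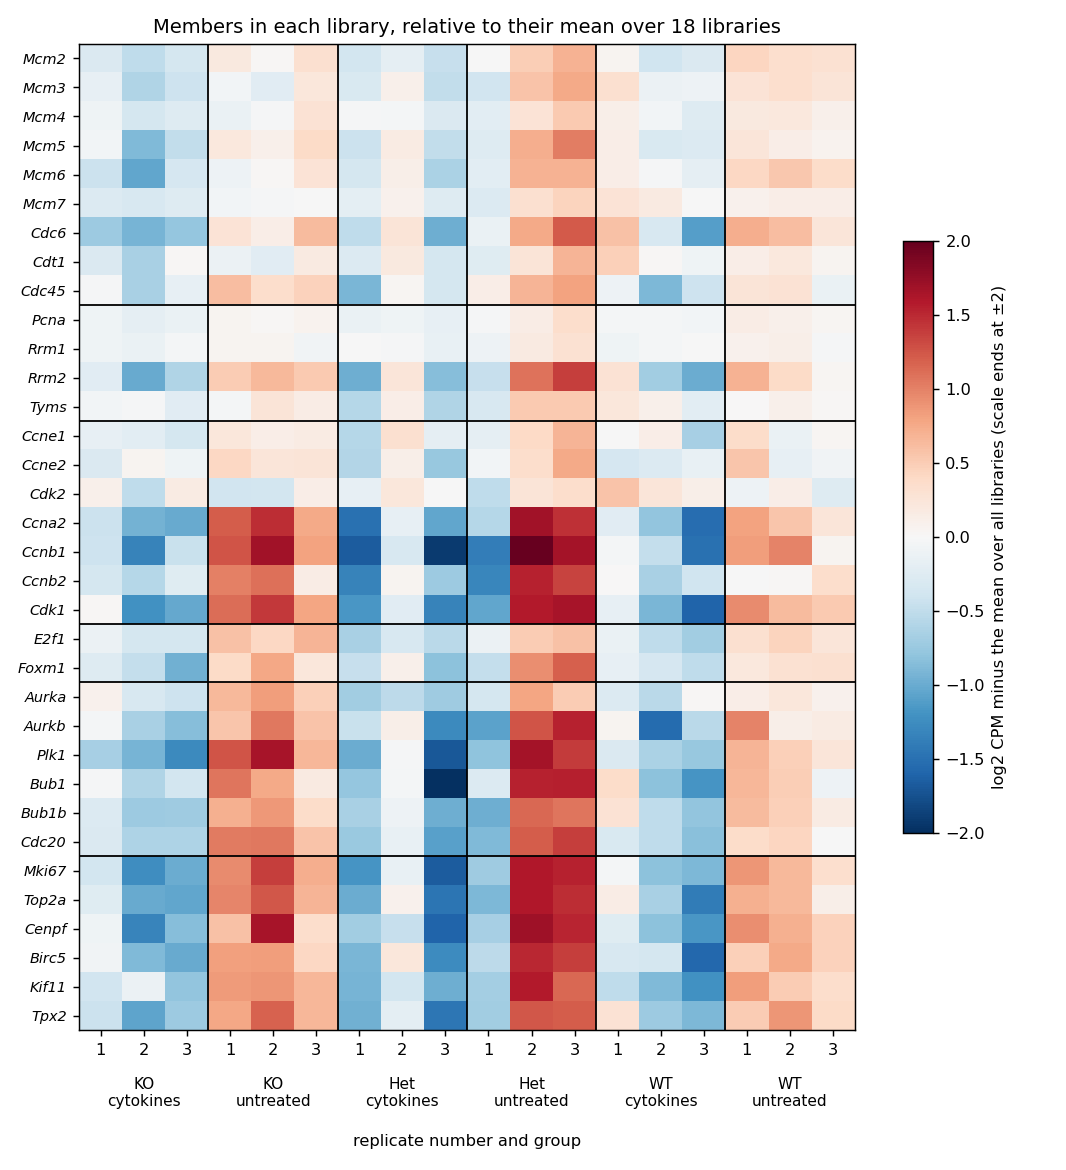
Each row is 1 of the 34 members and each column 1 of the 18 libraries. Color gives log2 CPM minus the gene's mean over the 18 libraries, from -2 (blue) to 2 (red), and black lines separate the groups and the 6 roles. Untreated Het replicate 1 is blue or pale for nearly all genes, unlike Het untreated replicates 2 and 3, and the mitotic rows at the bottom have stronger colors than the Mcm rows at the top.

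In KO islets 17 members fell, against 16.0% of tested genes, with a median of -1.06. In Het islets 23 fell, against 11.7%, with a median of -1.07. In WT islets 3 of 34 fell, a smaller share than the 13.1% of tested genes, with a median of -0.66. There 30 estimates were below 0 and 4 above 0, and 9 had an unadjusted p under 0.05, as 36.7% of tested genes did. No member rose in any genotype: 0 passed upward by edgeR, DESeq2 or limma, and 0 had an unadjusted p under 0.05 in that direction. Mcm2, E2f1 and Kif11 fell in all 3 genotypes, and 16 members fell in both KO and Het islets. All 3 treated libraries lay below all 3 untreated ones for 28 members in KO islets (22.6% of tested genes), 17 in WT islets (23.4%) and 5 in Het islets (17.4%).

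The counts in single genotypes depended on single libraries and on the model, and each is given with the share of all tested genes that fell in the same fit. For KO islets, edgeR called 6 without KO treated replicate 2 (13.5% of tested genes), 6 without treated replicate 3 (13.3%), 8 without untreated replicate 1 (11.8%) and 5 without untreated replicate 2 (12.2%). For Het islets it called 7 without treated replicate 1 (8.38%), without treated replicate 3 (8.41%) or without untreated replicate 2 (8.93%), and 10 without untreated replicate 3 (11.2%). It called 2 in a fit on the Het libraries alone (6.12%). Without untreated Het replicate 1 it called 31 (10.5%), with a median of -1.40. Without that library the Het estimates of Ccnb1, Plk1, Ccna2, Kif11, Mki67 and E2f1 were -3.23 ± 0.49, -2.35 ± 0.37, -2.41 ± 0.36, -2.17 ± 0.26, -2.44 ± 0.39 and -1.05 ± 0.15, against -2.70 ± 0.74, -1.90 ± 0.53, -1.98 ± 0.50, -1.74 ± 0.42, -1.99 ± 0.53 and -0.86 ± 0.17 with it. For WT islets edgeR called 1 without treated replicate 2 (9.18%), 7 with the replicate number as a block (13.5%) and 14 in a fit on the WT libraries alone (15.5%), while DESeq2 called 6 (10.6%) and limma 16 (19.6%). Over the average of the genotypes, leaving out any single library kept the count between 27 and 32, where 22.7% to 25.7% of tested genes fell.

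E2f1 and Foxm1 are transcription factors that drive the genes of S phase and of G2 and mitosis. E2f1 had 7.196, 6.05 and 6.11 CPM in treated KO islets and 11.7, 10.4 and 12.5 CPM in untreated KO islets. In Het islets it had 4.92, 6.20 and 5.36 CPM with cytokines and 7.17, 11.1 and 11.7 CPM without. WT islets had 7.11, 5.46 and 4.78 CPM of E2f1 with cytokines and 9.77, 10.7 and 9.24 CPM without. Treated and untreated libraries did not overlap in any genotype, and E2f1 was the member with the smallest p over the average of the genotypes, with a log2 fold change of -0.82 ± 0.10 (edgeR adjusted p = 4.4e-06). By genotype the estimates were -0.84 ± 0.17 in KO, -0.86 ± 0.17 in Het and -0.77 ± 0.18 in WT islets (edgeR adjusted p = 0.0015, 0.00168 and 0.0037). Foxm1 was at 2.80 ± 0.68 CPM in treated and 5.73 ± 1.15 CPM in untreated KO islets, and at 3.24 ± 0.39 and 4.98 ± 0.20 CPM in treated and untreated WT islets (SD, n = 3 each). Its average log2 fold change was -0.91 ± 0.20 (edgeR adjusted p = 0.00126), and in Het islets untreated replicate 1, at 2.90 CPM, lay among the treated libraries at 2.29 to 4.38 CPM.

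Of the licensing and helicase genes 7 of 9 fell over the average of the genotypes, with a median of -0.60 for the role, and 8 of 9 fell without untreated Het replicate 1, with a median of -0.69. Mcm2, a subunit of the hexameric helicase, had the smallest p among them. It had 12.8, 10.9 and 12.2 CPM in treated KO islets and 17.8, 15.9 and 19.5 CPM in untreated KO islets. In Het islets it had 12.04, 13.8 and 11.4 CPM with cytokines and 15.5, 22.1 and 25.2 CPM without. Treated WT islets had 16.2, 11.8 and 12.7 CPM and untreated WT islets 21.1, 19.8 and 19.3 CPM. The groups did not overlap in any genotype, and untreated Het replicate 1 was the nearest to the treated libraries. Its log2 fold change was -0.63 ± 0.09 on average (edgeR adjusted p = 1.99e-05), and -0.57, -0.75 and -0.57 in KO, Het and WT islets (adjusted p = 0.00964, 0.00165 and 0.0118).

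Cdc45, which joins MCM and GINS in the active helicase, fell by 0.76 ± 0.15 on the log2 scale on average (edgeR adjusted p = 0.000514), with treated below untreated libraries in KO and Het islets and an overlap in WT islets. Cdc6, which loads MCM onto origins, averaged 0.933 ± 0.0715 CPM in treated and 2.19 ± 0.41 CPM in untreated KO islets, and 1.55 ± 0.93 and 2.49 ± 0.43 CPM in treated and untreated WT islets (SD, n = 3 each). Treated WT replicate 1, at 2.56 CPM of Cdc6, lay among the untreated WT libraries at 2.02 to 2.84 CPM. Of the other MCM subunits, Mcm3, Mcm4, Mcm5 and Mcm6 had average log2 fold changes of -0.29 to -0.61 and passed. Mcm7 had -0.18 ± 0.08 (adjusted p = 0.0732) and Cdt1, the partner of Cdc6 in loading, -0.20 ± 0.13 (adjusted p = 0.227). Untreated Het replicate 1 touches the Mcm7 value: without that library Mcm7 had -0.24 ± 0.05 and passed (edgeR adjusted p = 0.000754).

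Genes of nucleotide supply and the clamp had the role median nearest to 0, -0.24 with untreated Het replicate 1 and -0.29 without it. Pcna, the clamp that holds DNA polymerases on the template, is also used in DNA repair, and it was the most abundant member per length of transcript, at 18.9 ± 0.78 CPM per kb of exon in untreated WT islets. Treated KO islets had 39.9, 37.3 and 38.8 CPM of it and untreated KO islets 44.1, 43.3 and 44.6 CPM. Treated Het islets had 38.7, 39.9 and 38.0 CPM, against 41.9, 47.0 and 54.5 CPM in untreated Het islets. Treated WT islets had 41.4, 41.3 and 40.7 CPM, against 47.2, 45.5 and 43.5 CPM in untreated WT islets. No treated library reached the untreated ones of its genotype, so a small decrease, -0.21 ± 0.04 on the log2 scale, passed (edgeR adjusted p = 0.000386).

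The subunits of ribonucleotide reductase, the enzyme that makes deoxyribonucleotides, parted in size. Rrm2, the subunit whose level follows S phase, fell by 1.06 ± 0.26 on average on the log2 scale (edgeR adjusted p = 0.0043) and stood at 5.52 ± 1.47 CPM in treated and 12.2 ± 0.65 CPM in untreated KO islets (SD, n = 3 each). Rrm1, the more stable large subunit, fell by 0.13 ± 0.05 (adjusted p = 0.0248). Tyms, which makes thymidylate, had -0.27 ± 0.12 (adjusted p = 0.0844), and -0.35 ± 0.10 without untreated Het replicate 1 (edgeR adjusted p = 0.00887).

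Among the cyclins and their kinases the G2 and mitotic members had more negative average estimates than those of G1. Ccna2 encodes cyclin A2, used in S phase and G2. It had 2.33, 1.61 and 1.54 CPM in treated KO islets and 7.43, 8.97 and 5.41 CPM in untreated KO islets. Treated Het islets had 1.08, 2.81 and 1.501 CPM, and untreated Het islets 2.12, 10.3 and 8.90 CPM. WT islets had 2.69, 1.79 and 1.06 CPM with cytokines and 5.58, 4.69 and 3.74 CPM without. The groups were apart in KO and WT islets and overlapped in Het islets through untreated replicate 1. Ccna2 fell by 1.77 ± 0.29 on average on the log2 scale (edgeR adjusted p = 0.000145), and by 1.91 ± 0.20 without that library.

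Ccnb1, cyclin B1, had the most negative average estimate of the members, -2.03 ± 0.42 (edgeR adjusted p = 0.000952), or -2.20 ± 0.27 without untreated Het replicate 1, at low levels of 0.214 to 0.992 CPM in the 9 treated libraries. Its untreated levels were 1.84 to 3.41 CPM in KO, 0.341 to 4.75 CPM in Het and 1.06 to 2.10 CPM in WT islets. Cdk1, the kinase that cyclin B activates to start mitosis, averaged 1.39 ± 0.73 CPM in treated and 4.86 ± 1.04 CPM in untreated KO islets, and 1.25 ± 0.65 and 3.61 ± 0.58 CPM in treated and untreated WT islets (SD, n = 3 each), with an average log2 fold change of -1.78 ± 0.34 (edgeR adjusted p = 0.000518), or -1.94 ± 0.22 without untreated Het replicate 1. Ccnb2 fell too, at -1.15 ± 0.33. Of the cyclins E, which act at the start of S phase, Ccne2 fell by 0.52 ± 0.14 and Ccne1 by 0.37 ± 0.15. Cdk2, the kinase of cyclins E and A, did not pass, at 0.16 ± 0.13 (adjusted p = 0.338), and had 9.59 ± 1.62 CPM in treated against 7.27 ± 0.99 CPM in untreated WT islets.

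All 6 mitotic kinases and checkpoint genes fell over the average of the genotypes with and without untreated Het replicate 1, with medians of -1.26 and -1.41. Plk1, the kinase that drives entry into mitosis and spindle assembly, had 1.09, 0.897 and 0.691 CPM in treated KO islets and 4.36, 5.76 and 2.85 CPM in untreated KO islets. Treated Het islets had 0.852, 1.75 and 0.500 CPM, and untreated Het islets 0.990, 5.80 and 4.81 CPM. Treated WT islets had 1.45, 1.13 and 1.02 CPM, and untreated WT islets 2.91, 2.502 and 2.13 CPM. Treated libraries were below untreated ones in KO and WT islets, and untreated Het replicate 1 fell inside the treated Het range. Plk1 fell by 2.26 ± 0.54 in KO and by 1.90 ± 0.53 in Het islets on the log2 scale (edgeR adjusted p = 0.00481 and 0.0158) and had -1.07 ± 0.53 in WT islets (adjusted p = 0.16).

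Aurka, the centrosome kinase, did not overlap between treated and untreated libraries in any genotype and fell by 0.78 ± 0.14 on average (edgeR adjusted p = 0.000228). Its KO islets had 2.93, 2.20 and 2.04 CPM with cytokines and 4.36, 4.95 and 3.87 CPM without. Cdc20, the activator of the anaphase-promoting complex, fell by 1.26 ± 0.25 (adjusted p = 0.000558). Aurkb, the kinase of the chromosomal passenger complex, and Bub1 and Bub1b, of the spindle checkpoint, had average estimates of -1.26, -1.35 and -1.09 and passed. Bub1 held the lowest single count of all members, and its treated libraries lay between 0.0715 and 0.951 CPM.

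Chromosome and spindle genes showed the most negative role median, -1.49, or -1.64 without untreated Het replicate 1, and all 6 fell over the average of the genotypes either way. Kif11, the kinesin that pushes spindle poles apart, had 1.45, 1.75 and 1.07 CPM in treated KO islets and 3.49, 3.57 and 3.05 CPM in untreated KO islets. Het islets had 0.968, 1.46 and 0.929 CPM with cytokines and 1.16, 5.84 and 4.29 CPM without. WT islets had 1.32, 1.00 and 0.784 CPM with cytokines and 3.46, 2.74 and 2.46 CPM without. Only untreated Het replicate 1 broke the separation of the groups. Kif11 fell by 1.24 ± 0.41, 1.74 ± 0.42 and 1.48 ± 0.43 on the log2 scale in KO, Het and WT islets (edgeR adjusted p = 0.0307, 0.0059 and 0.0181).

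Mki67 encodes Ki-67, the coat protein of mitotic chromosomes used as a marker of cycling cells. It had 5.93, 3.19 and 3.80 CPM in treated KO islets and 14.8, 19.97 and 12.7 CPM in untreated KO islets. In Het islets it had 3.33, 6.93 and 2.36 CPM with cytokines and 4.64, 23.4 and 22.2 CPM without. Treated WT islets had 7.44, 4.30 and 4.08 CPM, and untreated WT islets 14.2, 12.04 and 9.65 CPM. Again the groups were apart in KO and WT islets, and untreated Het replicate 1 lay within the treated Het range. Mki67 fell by 1.68 ± 0.31 on average (edgeR adjusted p = 0.000447), and the estimates were -1.87 ± 0.53 in KO, -1.99 ± 0.53 in Het and -1.18 ± 0.53 in WT islets, the last not passing (adjusted p = 0.121). Cenpf, a kinetochore protein, fell by 1.77 ± 0.33 and Tpx2, the spindle assembly factor that activates Aurora A, by 1.41 ± 0.27. Top2a, the topoisomerase that untangles sister chromatids, and Birc5, survivin of the passenger complex, had -1.49 ± 0.33 and -1.42 ± 0.29 and passed.

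**Figure D2:**
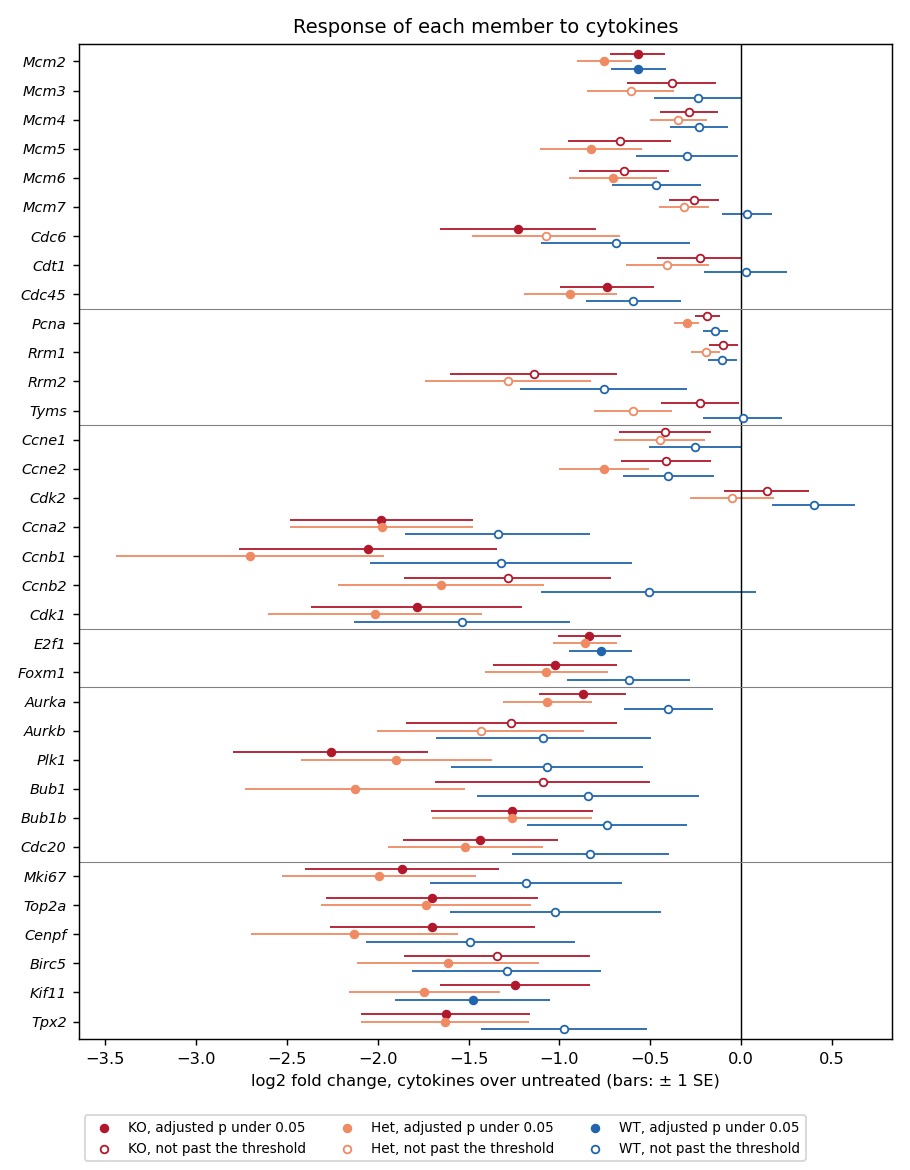
Points are log2 fold changes, cytokines over untreated, for the 34 members in KO (dark red), Het (orange) and WT (blue) islets, with bars of ± 1 SE. Filled points passed an adjusted p of 0.05 in edgeR's quasi-likelihood test: 17 in KO, 23 in Het and 3 in WT islets. Points of the mitotic genes lie farther left than those of the Mcm genes, and the bars of the genotypes overlap for most genes.

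**Figure D3:**
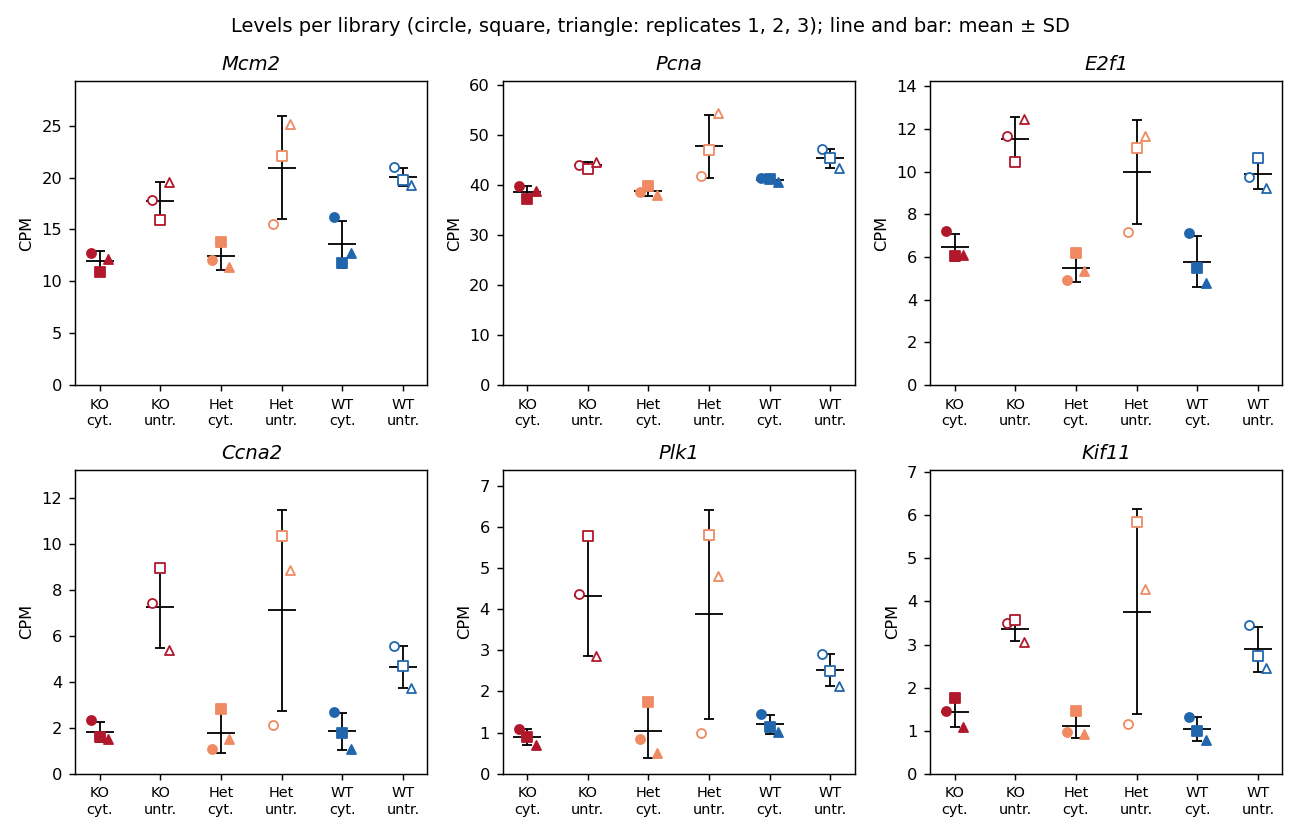
CPM of 6 members in each library, with treated (filled) left of untreated (open) libraries for KO, Het and WT islets and lines at the mean ± SD of 3. Untreated Het replicate 1 (open orange circle) lies near the treated libraries, at 2.12 CPM of Ccna2 against 10.3 and 8.90 CPM in the other two.

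Promoter sequences of these genes were read because S phase genes are known to carry E2F sites, and G2 and mitotic genes CHR elements (cell cycle genes homology region, bound by MuvB) with CCAAT boxes. RefSeq promoters on GRCm38.p6 were found for 28 of 34 members. Each was taken as 280 bases, 250 before the transcription start and 30 from it. Both strands were searched for 3 kinds of word. The E2F words were TTCCCGC, the form TTGGCGC, the form TTCGCGC and the form TTGCCGC. The CHR words were TTTGAA and the form TTCGAA, and the CCAAT box was searched by its name. An E2F word can share letters with a CCAAT word. An E2F word was present in 12 of 28 members and 10.1% of the 27025 genes with such a promoter, a CHR word in 12 of 28 and 20.9%, and CCAAT in 22 of 28 and 39.7%. Of the 8 licensing and helicase members with a promoter 6 held an E2F word, against 0 of 5 mitotic kinase and checkpoint members. CHR words were in 3 of those 8 and in 3 of those 5, and in 4 of 5 chromosome and spindle members. These counts, and the medians below, include 4 members whose promoter start lay over 100 bases inside the GENCODE M21 gene. They were Cdc6 and Mcm7, both with an E2F word, and E2f1 and Pcna, both without.

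5 promoters are printed to show these arrangements, 5′ to 3′ on the strand of the gene, with E2F, CHR and CCAAT words (or their reverse complements) in capitals. Mki67 (chr7:135716350-135716629, minus strand) and Cdk1 (chr10:69352883-69353162, minus) hold all 3 kinds. Mcm2 (chr6:88898751-88899030, minus) and Kif11 (chr19:37376132-37376411, plus), both lower in every genotype, hold CHR and CCAAT. Aurka (chr2:172370541-172370820, minus) holds CCAAT alone.
Mki67: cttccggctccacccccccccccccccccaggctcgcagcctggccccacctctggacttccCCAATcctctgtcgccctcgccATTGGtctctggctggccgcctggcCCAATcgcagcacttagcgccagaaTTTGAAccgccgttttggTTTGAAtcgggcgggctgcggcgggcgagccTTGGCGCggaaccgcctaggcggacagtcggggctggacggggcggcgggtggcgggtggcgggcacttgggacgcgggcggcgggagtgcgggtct
Cdk1: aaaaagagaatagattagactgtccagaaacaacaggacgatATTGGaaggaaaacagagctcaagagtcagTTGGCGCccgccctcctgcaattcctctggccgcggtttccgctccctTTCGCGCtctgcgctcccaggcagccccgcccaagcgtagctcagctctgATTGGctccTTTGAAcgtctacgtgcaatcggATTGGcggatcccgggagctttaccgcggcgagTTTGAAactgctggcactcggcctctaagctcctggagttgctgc
Mcm2: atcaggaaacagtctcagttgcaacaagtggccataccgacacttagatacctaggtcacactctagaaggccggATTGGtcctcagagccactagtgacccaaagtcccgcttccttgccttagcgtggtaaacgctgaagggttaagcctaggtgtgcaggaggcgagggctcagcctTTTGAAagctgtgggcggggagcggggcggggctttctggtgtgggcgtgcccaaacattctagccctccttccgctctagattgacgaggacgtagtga
Kif11: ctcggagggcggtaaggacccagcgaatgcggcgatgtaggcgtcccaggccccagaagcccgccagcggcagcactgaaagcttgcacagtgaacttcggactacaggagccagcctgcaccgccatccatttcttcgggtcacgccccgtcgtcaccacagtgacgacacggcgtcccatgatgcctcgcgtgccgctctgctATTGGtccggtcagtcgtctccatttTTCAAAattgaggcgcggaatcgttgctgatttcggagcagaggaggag
Aurka: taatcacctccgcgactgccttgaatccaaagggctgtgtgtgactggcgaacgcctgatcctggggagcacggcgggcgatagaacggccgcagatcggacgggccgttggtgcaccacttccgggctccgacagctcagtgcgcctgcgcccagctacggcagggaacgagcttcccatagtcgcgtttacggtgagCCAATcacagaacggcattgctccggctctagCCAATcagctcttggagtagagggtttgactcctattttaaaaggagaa
In Mki67 the E2F word TTGGCGC begins 67 bases before the transcription start and CHR words begin 116 and 98 bases before it. In Cdk1 the E2F words begin 178 and 130 bases before the start, and the CHR words begin 71 and 15 bases before it.

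The average cytokine response was set beside these words as a description. Members with a CHR word had a median log2 fold change of -1.31 (12 members), against -0.60 for those without (16). Members with an E2F word had -0.60 (12), against -1.12 without (16), and members with CCAAT -1.07 (22), against -0.60 without (6). Leaving out untreated Het replicate 1 gave -1.45 and -0.69 for CHR, -0.69 and -1.27 for E2F and -1.21 and -0.66 for CCAAT, members with the word first. The words were spread unevenly over the roles, so word and role cannot be told apart in these medians. A word match is not a measured binding site.

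Between genotypes, 0 of 34 members passed in any of the 6 comparisons by edgeR, against 2.94% of tested genes for KO against WT untreated, 5.33% for KO against WT with cytokines, 0.00569% for Het against WT untreated, 0% for Het against WT with cytokines, 0% for KO against Het untreated and 0.00569% for KO against Het with cytokines. At an unadjusted p under 0.05 there was 1 member in untreated and 2 in treated KO against WT, where 18.3% and 24.0% of tested genes passed that mark. The other 4 comparisons had 0 such members, against 6.97% and 7.03% of tested genes for Het against WT untreated and treated and 14.6% and 8.32% for KO against Het untreated and treated. DESeq2 called 0 in all 6. Aurka was the 1, at 4.39 ± 0.54 CPM in untreated KO and 3.06 ± 0.15 CPM in untreated WT islets (SD, n = 3 each), a log2 fold change of 0.52 ± 0.24 (edgeR adjusted p = 0.25). All of these counts use the 18 libraries. Without untreated Het replicate 1 many members had an unadjusted p under 0.05 in the untreated comparisons with Het, as described below.

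Mcm7, a subunit of the helicase, had 18.02, 17.4 and 18.2 CPM in treated KO islets and 26.2, 24.6 and 21.7 CPM in treated WT islets. Without cytokines it had 21.1, 21.5 and 21.6 CPM in KO islets and 23.1, 23.9 and 24.0 CPM in WT islets. KO lay below WT in both treatments with no overlap, as it did for Mcm3 and Mcm6. The log2 fold change of Mcm7 was -0.44 ± 0.14 with cytokines (edgeR adjusted p = 0.0765) and -0.15 ± 0.14 without (adjusted p = 0.629). In treated KO against WT islets limma called Mcm7 alone of the members (adjusted p = 0.00318), where 12.8% of tested genes were called lower, as did an edgeR fit on those 2 groups (adjusted p = 0.0397), where 2.28% were. In all, 3 of 34 members were lower in KO and 3 higher without overlap among untreated islets (14.7% and 11.0% of tested genes), and 4 lower and 0 higher among treated ones (16.0% and 14.5%), each count of lower members a smaller share than over all tested genes.

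Untreated KO against Het islets changed with the library that stood apart. With it, 0 members passed by edgeR and the median of the members was -0.17. Without it, 5 were lower in KO, and these were Mcm7 at -0.42 ± 0.09, Mcm3, Mcm2, Pcna and Rrm1 (edgeR adjusted p = 0.0137 to 0.0456), with a median of -0.49, where 6.08% of tested genes were lower. Limma with library weights, on all libraries, called Mcm2, Mcm3, Mcm6 and Mcm7, where it called 6.56% lower. Untreated Het against WT had 0 called with or without that library, and the median of the members was 0.32 with it and 0.66 without. Cdc20 had the smallest p there without it, 1.05 ± 0.24 (edgeR adjusted p = 0.153).

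Whether the cytokine response itself differed between genotypes was tested as an interaction. By edgeR 0 members passed for KO against WT, Het against WT or KO against Het, where 0.0114%, 0% and 0% of tested genes did. With all 18 libraries 0 members had an unadjusted p under 0.05, beside 6.73%, 4.79% and 5.73% of tested genes. DESeq2 and limma called 0 as well. Without untreated Het replicate 1, many members had an unadjusted p under 0.05 for Het against WT, and some for KO against Het. In that fit 0 members passed in either comparison. Mcm7 had the smallest p of the members for Het against WT there, at -0.54 ± 0.12 (edgeR adjusted p = 0.215). For KO against Het it was Kif11, at 0.93 ± 0.35 (edgeR adjusted p = 0.298). The smaller count of calls in WT islets is thus not shown to be a smaller response. The intervals were wide: for Plk1 the KO response minus the WT response was -1.19 (2 SE interval -2.70 to 0.32), and for Ccnb1 the Het response minus the WT response was -1.38 (-3.47 to 0.71). Without untreated Het replicate 1 that Ccnb1 difference was -1.91 ± 0.68, more than 2 SE below 0 (edgeR adjusted p = 0.25). For E2f1 KO minus WT was -0.06 ± 0.25. All 34 estimates of Het minus WT were below 0, as were 50.4% over all tested genes, with a median of -0.45, or -0.82 without untreated Het replicate 1, and they share the same WT libraries.

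Other genes of the same processes were read from lists of the pathway. Of 41 other replication genes 23 fell and 0 rose over the average of the genotypes, with a median log2 fold change of -0.33. Over all tested genes 26.0% fell and 22.7% rose. In single genotypes 12 fell in KO (16.0% of tested genes), 16 in Het (11.7%) and 5 in WT islets (13.1%), the last a slightly smaller share. Without untreated Het replicate 1, 27 of the 41 fell over the average of the genotypes, against 24.7% of tested genes. The summed level of the 41 genes was 505.9 CPM in that library against 572.8 and 611 CPM in its companions. Rpa1, which coats single-stranded DNA, had 50.7, 46.6 and 45.2 CPM in treated and 75.3, 78.5 and 68.8 CPM in untreated KO islets. It had 46.6, 46.7 and 45.8 CPM in treated and 66.1, 70.2 and 67.6 CPM in untreated WT islets. The groups were far apart, and in Het islets untreated replicate 1 at 69.7 CPM stood with its companions at 72.4 and 67.9 CPM. Rpa1 fell by 0.59 ± 0.03 (edgeR adjusted p = 4.58e-10), Orc6 of the origin recognition complex by 0.50 ± 0.04 and Prim1, the primase, by 0.58 ± 0.06.

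Of 52 other mitosis genes 44 fell and 1 rose over the average of the genotypes, with a median of -1.11, against 26.0% and 22.7% of all tested genes. In single genotypes 26 fell in KO (16.0% of tested genes), 37 in Het (11.7%) and 5 in WT islets (13.1%), the last a smaller share. Without untreated Het replicate 1, where 24.7% of tested genes fell, 46 fell and 1 rose over the average. The sum of the 52 genes in that library was 242.7 CPM against 370.1 and 356.3 CPM in its companions. Dlgap5 and Racgap1, of the spindle and of cytokinesis, fell by 1.07 ± 0.08 and 0.99 ± 0.08. Untreated Het replicate 1 had 7.78 CPM of Dlgap5, near its companions at 8.81 and 7.93 CPM, and 10.9 CPM of Racgap1, below its companions at 14.8 and 13.9 CPM. The gene that rose was Spc25, a kinetochore subunit, at 149.3, 169.5 and 120 CPM in treated and 59.4, 58.2 and 53.7 CPM in untreated KO islets, with an average log2 fold change of 1.15 ± 0.08 (edgeR adjusted p = 2.63e-08). Even untreated, Spc25 was well above the mitotic members in CPM: Mki67 was at 19.97 CPM or less in those KO libraries. Of 27 tested other regulators of the cell cycle 16 fell and 2 rose over the average, against the same 26.0% and 22.7% of all tested genes. In single genotypes 7 fell in KO (16.0% of tested genes), 9 in Het (11.7%) and 2 in WT islets (13.1%), the last a smaller share. Without untreated Het replicate 1, 15 fell and 2 rose over the average, where 24.7% of tested genes fell. Cdc25a, the phosphatase that activates cyclin-dependent kinases at the start of S phase, rose by 0.36 ± 0.04 (adjusted p = 3.67e-07), while Rbl2, the retinoblastoma family protein p130, fell by 0.36 ± 0.05 and Tfdp1, the DNA-binding partner of E2F, by 0.21 ± 0.03.

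Markers of other islet cells are set beside the same shares of all tested genes, 26.0% lower and 22.7% higher. Of 14 mesenchymal markers 10 fell and 0 rose over the average of the genotypes, with and without untreated Het replicate 1, with Mgp at -2.42 ± 0.16, while Dcn and Pdgfra had 0.88 ± 0.37 and 0.32 ± 0.36 and did not pass. In single genotypes 2 of the 14 fell in KO (16.0% of tested genes), 10 in Het (11.7%) and 4 in WT islets (13.1%), the KO count a smaller share. The sum of the 14 markers was 585.8 to 2046 CPM in treated and 1765 to 4043 CPM in untreated KO islets. In Het islets it was 555.9 to 1300 CPM with cytokines and 1219 to 3365 CPM without, and in WT islets 861 to 1560 CPM with and 1839 to 2061 CPM without. Untreated KO replicate 3 had the highest mesenchymal sum of all libraries, 4043 CPM, and the lowest median deviation of the 12 mitotic kinase, checkpoint, chromosome and spindle members among untreated KO libraries, 0.57 on the log2 scale against 0.83 and 1.05. Its 13 replication members had the highest, 0.27 against 0.050 and 0.031. No mesenchymal marker was at 0 throughout a group.

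Endothelial markers fell for 3 of 11 (Kdr, Esam and Egfl7), a share close to that of all tested genes, with sums of 217 to 711 CPM in treated and 317 to 710 CPM in untreated libraries. Macrophage markers rose for 2 of 13, Cd14 and Cd68, and for Cd14 alone without untreated Het replicate 1, a smaller share than over all tested genes, with sums of 255 to 584 CPM in treated and 152 to 441 CPM in untreated libraries. Of 9 duct markers 2 rose, Spp1 and Mmp7, a share close to that of all tested genes. Of 14 tested acinar markers 0 passed in either direction. Beta cell markers fell for 8 of 10 and rose for 1. Alpha cell markers fell for 4 of 7, or 3 of 7 without untreated Het replicate 1. Delta and PP cell markers fell for 4 of 5 either way, and 0 rose in these 2 lists. The part of these cell types in the lower cell cycle levels was not tested.

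**Figure D4:**
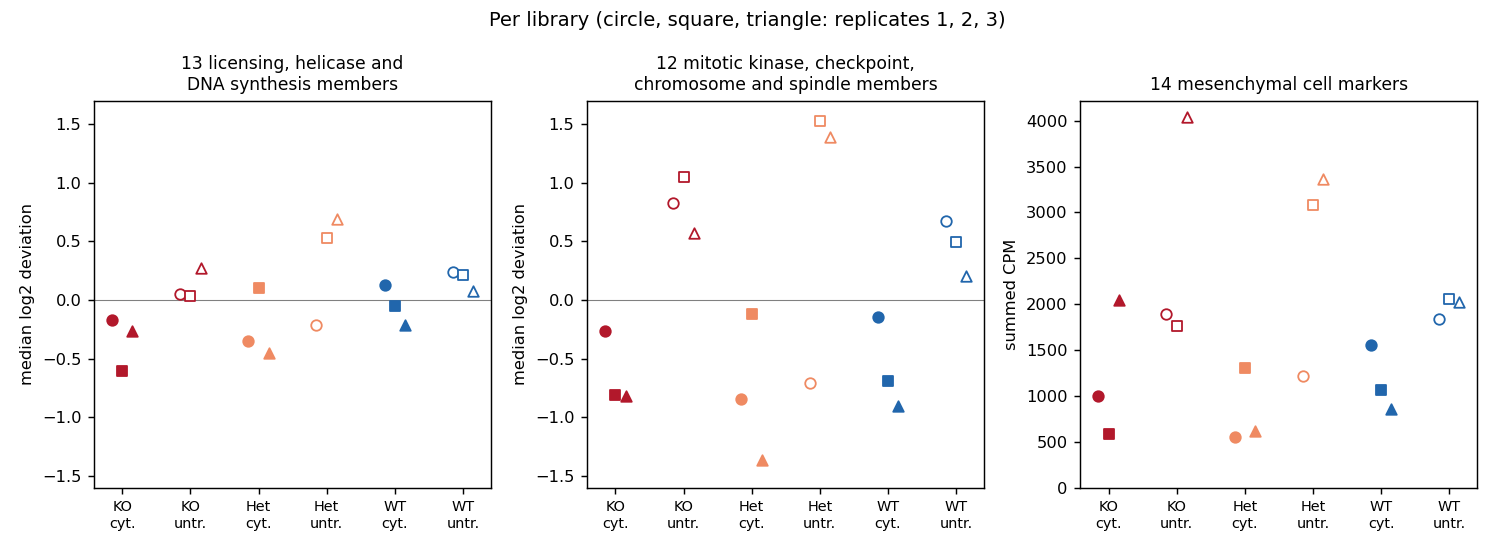
Left and middle, the median log2 deviation from the mean over 18 libraries for the 13 replication members and the 12 mitotic kinase, checkpoint, chromosome and spindle members; right, the summed CPM of 14 mesenchymal markers. Each point is 1 library, with treated (filled) left of untreated (open) for KO, Het and WT islets. Untreated Het replicate 1 (open orange circle) is at -0.70 in the middle panel against 1.53 and 1.39 for the other two.

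The levels rest on few reads for the mitotic genes, and 9 members share exon bases with another annotated gene, 7 of them on the opposite strand (Mcm7, Cdc45, Ccne2, Cdk2, Ccna2, Plk1 and Cdc20) and 3 on the same strand (Mcm7, Foxm1 and Top2a). No source names the strand setting of the counting, so reads in the overlaps, 34 to 609 bases long on the opposite strand, could belong to either gene. The same holds for Orc6 and Rbl2 among the other genes named above, while Spc25 shares no exon base with another annotated gene. Counts per member and library ran between 2 for Bub1 and 1572 for Pcna.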

How the data were processed

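Gene counts of 18 islet RNA libraries were used as deposited by the authors. The submitters' processing notes name FastQC 0.11.7, cutadapt 1.16, STAR 2.5.2a, featureCounts 1.6.2, DESeq2 1.30.0 and GRCm38, with no roles given. Library totals were 22990164 to 29946680. Genes were kept by edgeR's filterByExpr (minimum count 10), which left 17590 of 55536. The 18 libraries were fitted together with edgeR 4.0.16 (TMM scaling, robust quasi-likelihood test, 12 residual degrees of freedom, R 4.3.3), and p-values were adjusted by Benjamini-Hochberg over all tested genes, with a threshold of 0.05. The 13 comparisons were cytokines against untreated within each genotype and averaged over the 3 genotypes, the 6 genotype pairs within a treatment and the 3 differences of response. CPM values use TMM-scaled library sizes, and log2 CPM a prior count of 2. Errors of fold changes are standard errors worked back from the quasi-likelihood test, as the absolute log2 fold change over the square root of its F statistic. No 2 libraries held identical counts.

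The members and gene lists were chosen with earlier results of these data known. Members described library by library are up to 3 per role with the smallest p in the averaged comparison. Mki67 and the members that did not pass were added after their values were seen. Promoter sequences came from RefSeq on GRCm38.p6. Windows over 100 bases inside the GENCODE M21 gene (4 members) are not printed, a limit set after seeing them, but they are kept in the word counts and medians. Exon lengths and overlaps came from GENCODE M21. Alternatives were DESeq2 1.42.0, limma 3.58.1 (voom with sample quality weights), RLE scaling, no low-count filter, only the groups compared, a replicate block and leaving out each library. The scripts were tested on simulated data.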

Additional observations from a re-analysis of the deposited data

How the results depend on the processing

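Averaged over the genotypes, the count of 30 lower members stayed between 27 and 32 when single libraries were left out, and was 28 with DESeq2, 33 with limma, 29 with RLE scaling and 27 without the low-count filter. Of all genes with an adjusted p, 4284 of 22678 fell with DESeq2 and 5200 of 17590 with limma. With RLE scaling 4332 of 17590 fell, and without the filter 4228 of 33298. The fit on only the groups compared was not run for this average, which uses all groups. Counts within a genotype moved more. The genes that fell in the same fit, of all with an adjusted p, follow in parentheses. In KO islets (17 in the main fit) the count was 9 without the filter (2342 of 33298) and 5 to 14 with single libraries left out (11.8% to 14.8%). It was 20 with DESeq2 (2563 of 19565), 23 with limma (3887 of 17590) and 23 with only the groups compared (2052 of 16460). In Het islets (23 in the main fit) it was 14 without the filter (1646 of 33298) and 2 with only the groups compared (6.12%). With single libraries left out it was 7 to 31 (8.38% to 11.2%), with DESeq2 25 (1969 of 19565) and with limma 33 (2638 of 17590). In WT islets (3 in the main fit) it was 6 with DESeq2 (10.6%), 16 with limma (19.6%) and 14 with only the groups compared (15.5%). It was 3 without the filter (1973 of 33298) and 1 to 4 with single libraries left out (9.18% to 11.1%). Of the genotype comparisons, untreated KO against Het (0) had 4 with limma and 0 to 5 with single libraries left out, and KO against WT with cytokines (0) had 1 with limma and 1 with only the groups compared, while the other 4 and the 3 differences of response stayed at 0. Over all settings the median of the members was -1.23 to -0.94 in KO, -1.44 to -0.87 in Het, -0.87 to -0.52 in WT islets and -1.07 to -0.84 on average. The sources used here do not say whether same-numbered treated and untreated libraries came from the same mouse. Within genotypes 6 of 9 such pairs correlated above 0.1 (-0.22 to 0.39). With 3 candidates each, 12 of 18 libraries correlated best with their own number. These values do not settle whether the libraries were paired, and the main fit treats them as unpaired. With the replicate block the counts were 19 in KO, 23 in Het, 7 in WT islets and 30 on average. In the same order 2910, 2128, 2367 and 4621 of 17590 tested genes fell. Between genotypes the block gave 0, also with the number of the authors' sample table, an alternative chosen after seeing the data. Single log2 fold changes near 0 changed sign. With single libraries left out, Cdk2 in Het islets ran between -0.28 and 0.11, above 0 without treated replicate 1, untreated replicate 2 or untreated replicate 3. In WT islets Mcm7 ran between -0.031 and 0.10, Cdt1 between -0.16 and 0.13 and Tyms between -0.086 and 0.12, each below 0 without treated replicate 1. With limma Cdt1 had -0.063 and Tyms -0.00335, and with the block Tyms had -0.000472. The causes were not tested.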

Other observations

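Targets of p53, the factor that halts the cell cycle and starts apoptosis after DNA damage, were read as a further group, from a list chosen with earlier results known. Of 19 targets, 11 fell and 2 rose with cytokines over the average of the genotypes, with a median log2 fold change of -0.19. Over all tested genes 26.0% fell and 22.7% rose. In single genotypes 8 fell in KO (16.0% of tested genes), 9 in Het (11.7%) and 7 in WT islets (13.1%), and 2 rose in each. The 3 targets described next had the smallest p on average, and all of them fell. Sesn2, a stress-responsive inhibitor of mTORC1 signaling, was at 64.9 ± 6.36 CPM in treated and 164 ± 13.6 CPM in untreated KO islets, and at 59.6 ± 4.96 CPM in treated and 131 ± 8.33 CPM in untreated WT islets (SD, n = 3 each). It fell by 1.21 ± 0.06 on average on the log2 scale (edgeR adjusted p = 1.89e-10). Bbc3, the pro-apoptotic PUMA, fell by 1.32 ± 0.09 and Plk3, a stress-responsive polo-like kinase, by 1.02 ± 0.08. For these 3 genes untreated Het replicate 1 was the highest of the untreated Het libraries, at 162 CPM of Sesn2 against 132 and 123 CPM in its companions, whereas it was the lowest of them for 34 of 34 replication and mitosis members.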
